A study of Mus musculus with 4 samples.

Results

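Ezh2, Eed, Suz12, Jarid2, Rnf2, Bmi1, Cbx2, Cbx7, Kmt2a and Kmt2b encode the Polycomb and MLL regulators that set Hox gene activity, and these 10 genes were examined among 21883 protein-coding genes. They were chosen by name, and every listed ATAC-seq peak that overlapped the body of one of them, or 10 kb on either side, was taken as its own. ATAC-seq marks open chromatin by the insertion of sequencing adapters with a transposase. Libraries were made from embryonic stem cells of the mouse, 2 from wt cells and 2 from Hox-/- cells. By the series title the Hox-/- cells lack all Hox function. Both genotypes were grown alike, with serum, mouse LIF, the GSK-3 inhibitor CHIR99021 and the MEK1/2 inhibitor PD0325901. The labels do not say whether a genotype is 1 clone, nor whether the libraries of a genotype came from separate cultures, so the spread between replicates may be technical.

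Polycomb repressive complex 2 (PRC2) places methyl groups on lysine 27 of histone H3, and Polycomb repressive complex 1 (PRC1) ubiquitinates histone H2A and compacts chromatin. Together they hold Hox genes silent in embryonic stem cells. MLL proteins methylate lysine 4 of histone H3 and keep Hox genes active once they are switched on. Ezh2 is the methyltransferase of PRC2, Eed and Suz12 are core subunits, and Jarid2 is an accessory subunit. In PRC1, Rnf2 is the ubiquitin ligase, Bmi1 its RING finger partner, and Cbx2 and Cbx7 are chromodomain subunits. Kmt2a and Kmt2b encode MLL methyltransferases.

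Promoter sequence from RefSeq (GRCm38.p6) was found for 8 of the 10 genes, with 2 starts for Jarid2 and 9 starts in all. Cbx2 and Kmt2b had no entry, so for them both gene ends were used wherever a start is named below. The 250 bases before each start were rich in CG dinucleotides, with a median of 23 over the 9 promoters against 6 over 32851 promoters of the same length. Suz12 had the most, 37, and Eed the fewest, 12. Of the 4 promoters printed here, 2 are those of Eed and Rnf2, whose start peaks differed in rank more between genotypes than between replicates. Among all genes with a start peak in all 4 libraries, 24.8% did so. The other 2 are those of Suz12 and Bmi1. They lay at opposite ends of the range of peak strength among the genes whose listed start is also the boundary of the gene. Each run reads 5′ to 3′ on the strand of the gene, and capitals mark matches on either strand to the GC box GGGCGG, to CCAAT and to the E-box CACGTG.
Suz12, chr11:79992856-79993105, plus strand: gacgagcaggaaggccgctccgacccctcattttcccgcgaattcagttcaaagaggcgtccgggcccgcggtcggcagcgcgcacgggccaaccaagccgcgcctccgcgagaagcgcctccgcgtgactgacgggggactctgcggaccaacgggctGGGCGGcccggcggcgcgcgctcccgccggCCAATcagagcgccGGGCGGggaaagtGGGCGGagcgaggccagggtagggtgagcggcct
Rnf2, chr1:151500992-151501241, minus strand: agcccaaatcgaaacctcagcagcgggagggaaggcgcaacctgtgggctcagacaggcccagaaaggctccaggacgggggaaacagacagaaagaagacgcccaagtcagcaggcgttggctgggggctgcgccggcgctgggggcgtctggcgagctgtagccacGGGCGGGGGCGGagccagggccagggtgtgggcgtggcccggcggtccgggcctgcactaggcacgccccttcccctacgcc
Eed, chr7:89980977-89981226, minus strand: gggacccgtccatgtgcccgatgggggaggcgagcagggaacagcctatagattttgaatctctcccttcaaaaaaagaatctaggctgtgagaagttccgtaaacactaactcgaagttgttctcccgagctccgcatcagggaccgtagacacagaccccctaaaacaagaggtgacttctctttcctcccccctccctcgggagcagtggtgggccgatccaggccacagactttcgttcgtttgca
Bmi1, chr2:18676768-18677017, plus strand: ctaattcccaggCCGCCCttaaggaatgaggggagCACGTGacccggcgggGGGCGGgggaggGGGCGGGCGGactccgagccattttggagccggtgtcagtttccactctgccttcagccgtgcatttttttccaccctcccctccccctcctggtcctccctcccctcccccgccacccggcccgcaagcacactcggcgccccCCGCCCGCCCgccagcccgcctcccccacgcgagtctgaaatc

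A GC box was present in 7 of the 9 promoters, and in 32.7% of all promoters. The letters CCAAT occurred in 4 of 9 against 33.8% of all. Only the Bmi1 promoter held CACGTG, which 6.02% of all promoters hold. The Suz12 run has 3 GC boxes and 1 CCAAT, that of Rnf2 has 2 GC boxes and that of Bmi1 has 6, counting matches that overlap one another. None of the searched letters is in the Eed window. The ETS motif CCGGAAG (6.91% of all promoters), the NRF1 motif (0.782%) and the E2F motif TTTNGCGC (1.13%), also searched on both strands, had 0 matches in the 9 windows. A match describes the sequence and shows no binding.

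Facts of the whole lists bear on how the peaks of these genes can be read. A wt list had 213705 peaks for replicate 1 and 216795 for replicate 2, and a Hox-/- list had 191704 for replicate 1 and 200214 for replicate 2. Hox-/- replicate 1 was the shallowest library, at 0.640 of the relative depth of wt replicate 1, while the others lay between 0.941 and 1. Peaks within 1 kb of an end were listed in all 4 libraries at 5 of 5 pluripotency markers (Pou5f1, Sox2, Nanog, Esrrb and Zfp42). The same held for 3 of 5 fibroblast markers and for 3 of 4 markers of extraembryonic endoderm, while Postn, Lum and Gata4 had none, so a peak at a gene end does not by itself tell the cell type. Because lists of unequal depth cannot be compared by height, each peak was described by its rank in its own library, where rank 1 has the highest −log10 p. The shift between genotypes is the mean log2 rank in wt minus that in Hox-/-, so a positive shift means a better rank in Hox-/-. It was set against the log2 rank difference between the replicates of each genotype. With 2 libraries a genotype, an exact permutation test cannot give a two-sided p below 0.33, so no shift carries a p-value. By this measure 4 of the 11 markers with such peaks shifted by more than both replicate differences. Esrrb (−0.40 against 0.06), Zfp42 (−0.06 against 0.04) and the fibroblast marker Thy1 (−0.04 against 0.03) ranked lower in Hox-/-, and the endoderm marker Foxa2 (0.63 against 0.40) ranked higher. Their part in the shifts of the 10 genes was not tested.

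All 10 genes had a peak within 1 kb of the start in all 4 libraries, which was true of 67.2% of protein-coding genes. In every library 6 of the 10 ranked above the median gene that has such a peak, whose rank lay between 19225 and 20542. The strongest start was that of Kmt2b and the weakest that of Bmi1. Of the genes with a start peak, 5.74% to 9.57% ranked better than Kmt2b in the 4 libraries, and 87.9% to 89.7% ranked better than Bmi1.

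**Figure D1:**
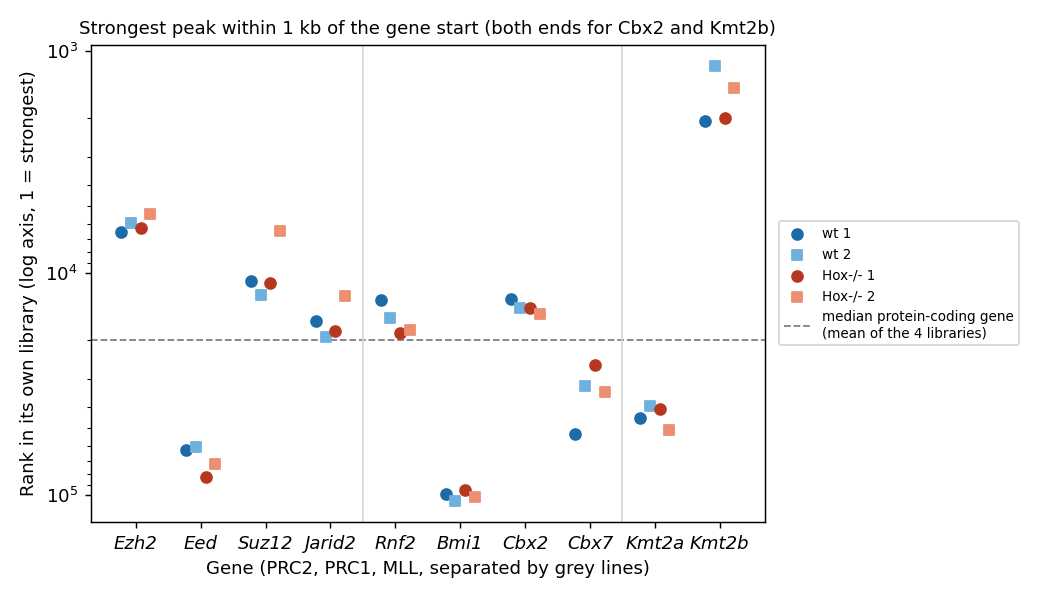
Rank of the strongest peak within 1 kb of the start (vertical log axis, strongest at the top) for the 10 genes, with 1 point per library and the rank of the median protein-coding gene, averaged over the 4 libraries, as a dashed line. Kmt2b lies at the top, with ranks from 1168 to 2064, and Bmi1 at the bottom, with ranks from 94695 to 105911.

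Among the PRC2 genes the start of Ezh2 was the most accessible. Its peak on chromosome 6 (gene body 47530274 to 47595270, build mm10) ranked 6489 and 5928 in wt, and 6248 and 5394 in Hox-/-, with replicate 1 before replicate 2 here and in all pairs of ranks that follow. The genotypes overlapped, and the shift of 0.10 was under the replicate difference of 0.21. The interval was 1613 to 1660 bp wide, and at most 1.97% of genes had a wider start peak in any library. Its summit lay 95 to 105 bp before the start in the 4 libraries, where 398, 413, 258 and 393 reads were stacked. When peaks were ranked by fold over background in place of −log10 p, the Ezh2 shift became 0.46 against a replicate difference of 0.08. Ranked by −log10 p, the shift was 0.20 without Hox-/- replicate 1, beyond the remaining 0.13, and without Hox-/- replicate 2 it was −0.01. An end of F830010H11Rik also lies within 1 kb of this region.

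Suz12, on chromosome 11 (79993106 to 80034123), ranked 10861 and 12543 in wt, and 11041 and 6424 in Hox-/-. Only Hox-/- replicate 2 stood apart, and the shift of 0.47 lay inside the replicate difference of 0.78 within Hox-/-. Without Hox-/- replicate 1 the shift was 0.86, beyond the remaining replicate difference of 0.21, and without Hox-/- replicate 2 it was 0.08 and inside it.

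Jarid2, on chromosome 13 (44730774 to 44921643), ranked 16466 and 19439 in wt, and 18169 and 12734 in Hox-/-. Here too the best rank was that of Hox-/- replicate 2, and the shift of 0.23 did not exceed the replicate difference of 0.51. The shift was 0.49 without Hox-/- replicate 1, against a remaining replicate difference of 0.24, and −0.02 without Hox-/- replicate 2.

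The start of Eed, on chromosome 7 (89954654 to 89980976), was weak for a gene with a start peak, since 77.8% to 86.3% of genes ranked better. It ranked 62463 and 61061 in wt, and 82890 and 72290 in Hox-/-. Both Hox-/- libraries were lower than both wt libraries. The shift was −0.33, against replicate differences of 0.03 in wt and 0.20 in Hox-/-, and it exceeded them in each of the 4 settings that left out 1 library. The summit that ranked best was not the same one in each library: it lay 23 and 48 bp after the start in wt replicate 1 and Hox-/- replicate 1, 297 bp before it in wt replicate 2, and 446 bp after it in Hox-/- replicate 2. These summits share 1 broad interval of 1011 to 1220 bp.

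Among the PRC1 genes, Rnf2 on chromosome 1 (151469398 to 151500991) ranked 13201 and 15959 in wt, and 18602 and 17979 in Hox-/-. Both Hox-/- libraries again lay below both wt libraries. The shift was −0.33, beyond the replicate differences of 0.27 in wt and 0.05 in Hox-/-. It was −0.20 without wt replicate 1, still beyond the remaining difference of 0.05. The interval was 1351 bp wide in both wt libraries, and 795 and 875 bp wide in Hox-/-, while the summits stayed 47 to 71 bp before the start in all 4.

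The start peak of Cbx2, at the end of the gene at 119023019 on chromosome 11 (gene body to 119031275), ranked 13006 and 14285 in wt, and 14415 and 15222 in Hox-/-. The genotypes did not overlap, yet the shift of −0.12 was smaller than the replicate difference of 0.14. Its ranks spread less than those of Suz12 or Kmt2b, and the summits lay within 36 to 51 bp of the gene end in all 4 libraries. It passed the remaining replicate difference when wt replicate 2 (−0.19) or Hox-/- replicate 1 (−0.16) was left out, but not without wt replicate 1 (−0.05) or Hox-/- replicate 2 (−0.08). An end of Gm35829 lies within 1 kb of it.

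Bmi1, on chromosome 2 (18677018 to 18686629), ranked 98473 and 105911 in wt, and 94695 and 102411 in Hox-/-. The genotypes overlapped and the shift was 0.05, against a replicate difference of 0.11. Its summit held 90, 86, 61 and 80 stacked reads, the lowest number of the 10 genes in each of the 4 libraries. Without Hox-/- replicate 2 the shift was 0.109, just beyond the remaining 0.105, and without Hox-/- replicate 1 it was −0.004. The region also lies within 1 kb of an end of Commd3. Its promoter, printed above with 6 GC boxes, held 21 CG dinucleotides.

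Cbx7, on chromosome 15, has a listed start at 79932646, although the gene body of the table runs from 79915804 to 79971143. At that start it ranked 53050 and 32393 in wt, and 26007 and 34458 in Hox-/-. The wt replicates spread more than the genotypes did, with a shift of 0.47 against a wt replicate difference of 0.71. Without wt replicate 2 the shift was 0.83, beyond the remaining difference of 0.41, and without wt replicate 1 it was 0.11 and inside it.

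A much stronger Cbx7 region lay at the far boundary of the gene body, at chr15:79970553-79971633. It ranked 4494 and 4539 in wt, and 4666 and 5282 in Hox-/-. Both wt libraries ranked it better, but the shift of −0.14 was under the Hox-/- replicate difference of 0.18.

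Of the MLL genes, Kmt2b on chromosome 7 (30568855 to 30589056) had its peak at the end at 30589056. It ranked 2064 and 1168 in wt, and 2003 and 1467 in Hox-/-, with 617, 675, 416 and 638 reads at the summit. The genotypes overlapped and the shift of −0.14 was far under the replicate difference of 0.82. Its sign was not stable: it was −0.55 without wt replicate 1, beyond the remaining 0.45, but 0.27 without wt replicate 2 and 0.23 when ranked by fold, neither beyond the replicate difference. The region also lies within 1 kb of an end of Zbtb32, Gm32082 and Mir3569. Like the start regions of Ezh2, Bmi1 and Cbx2, it thus cannot be assigned to 1 gene alone.

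At Kmt2a, on chromosome 9 (44803355 to 44881352), the answer depended on which summit was taken. Within 1 kb of the listed start at 44881289 the best summit lay 935 to 937 bp before it and ranked 45133 and 39503 in wt, and 40827 and 50733 in Hox-/-. These ranks overlapped, with a shift of −0.11 against 0.31 between replicates. Without Hox-/- replicate 1 the shift was −0.26, beyond the remaining 0.19, and without Hox-/- replicate 2 it was 0.05 and inside it. Taken as a whole, the merged region chr9:44881207-44883220 has a stronger summit farther out, and ranked 12005 and 14940 in wt, and 10382 and 9978 in Hox-/-. Both Hox-/- libraries were then above both wt libraries, and the shift was 0.40 against a replicate difference of 0.32. Reading the whole region at each start was chosen after the data were seen, but the planned window of 2.5 kb gave the same shift of 0.40. The planned window of 500 bp gave −0.30, inside the replicate difference of 0.38 and opposite in sign.

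Counted together, 2 of the 10 start peaks (Eed and Rnf2) shifted by more than both replicate differences, against 24.8% of the 14700 genes with a start peak in all 4 libraries. Both ranked lower in Hox-/-, a direction taken by 11.3% of all such genes, and 0 ranked higher, against 13.5%. The ranks of the genotypes did not overlap for 3 genes (Eed, Rnf2 and Cbx2), against 37% of genes. The median shift was −0.03 over the 10 genes and 0.02 over all. Thus the number of shifted starts was near that of genes at large. Ranked by fold, 3 genes passed (26.6% of all genes), 1 higher (Ezh2, against 18.6%) and 2 lower (Eed and Rnf2, against 8.03%). Ranked only among regions called in all 4 libraries, 3 passed (24.7% of all genes), 1 higher (Kmt2a, against 13.1%) and 2 lower (Eed and Rnf2, against 11.6%). In this last ranking each peak takes the rank of its whole merged region. For Kmt2a that is the stronger summit farther out, described above. With 1 library left out only 1 replicate difference remains to be exceeded, and the count was 7 without Hox-/- replicate 1, where 48.9% of all genes passed, and 4 without wt replicate 2, where 46% did. It was 3 without wt replicate 1, against 44.5% of all genes, and 3 without Hox-/- replicate 2, against 51.6%.

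**Figure D2:**
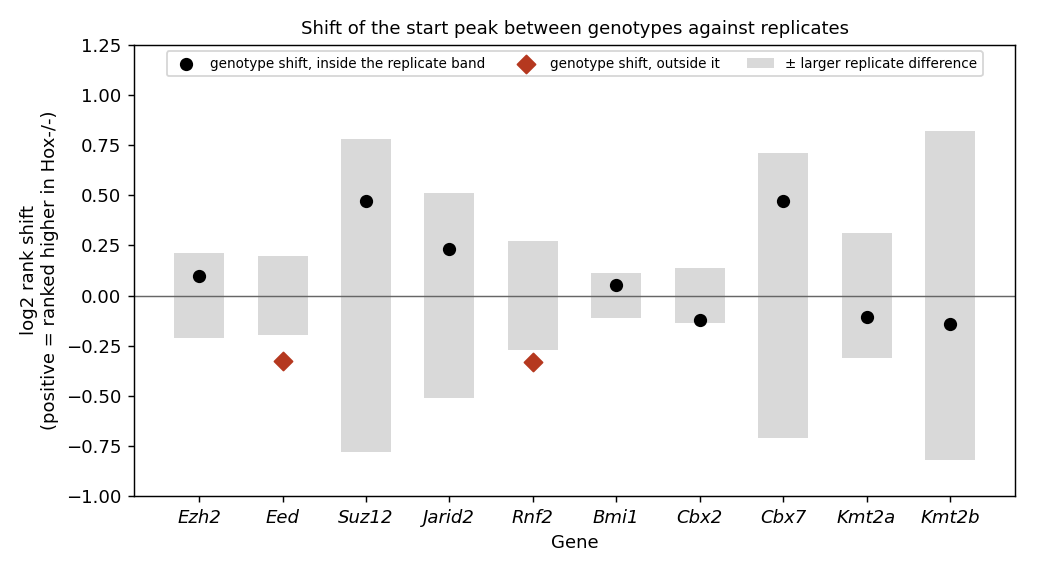
Shift of the start peak between genotypes on the log2 rank scale (points, positive when ranked higher in Hox-/-) for the 10 genes, with grey bars reaching the larger replicate difference on either side of 0. Eed and Rnf2, both at −0.33, lie outside their bars, and the other 8 genes lie inside.

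Beyond the starts, the windows of the 10 genes held 174 merged regions, of which 102 had a peak in all 4 libraries, 41 in 2 or 3, and 31 in 1. By position, 14 regions were at a start, 6 at another gene boundary, 112 inside a gene and 42 in the flanks. The gene table gives no exons, so exon and intron were not told apart. Jarid2, the longest gene at 190.9 kb, had 56 regions, Cbx7 had 29, Suz12 20, Kmt2a 18, Ezh2 11, Eed and Bmi1 9 each, Rnf2 and Kmt2b 8 each, and Cbx2 6. An end of another gene lay within 1 kb of 22 of the 174.

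By the mean log2 rank over the 4 libraries, the strongest region of the window was at the start for Ezh2, Suz12, Kmt2a and Kmt2b. At Eed it lay inside the gene, 5.13 kb after the start (chr7:89975482-89976202), and ranked 1812 and 965 in wt, and 1289 and 1347 in Hox-/-. The genotypes overlapped there, with a shift of 0.01. This region therefore ranked far above the start of Eed in every library. Distances at Jarid2 are from the nearer of its 2 listed starts. By the same mean its strongest region was 138.5 kb after the start (chr13:44869471-44870124) and ranked 1111 and 907 in wt, and 622 and 2660 in Hox-/-. Its ranks in the Hox-/- replicates were the best and the worst of the 4, so the shift of −0.36 was far under the replicate difference of 2.10. In wt replicate 1 and Hox-/- replicate 2 the best rank at Jarid2 was that of a region 8.43 kb before the start, at 1060 and 1472.

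For Rnf2 the strongest region lay 29.4 kb after the start, inside the gene (chr1:151471400-151471881), and ranked 10183 and 9744 in wt, and 11302 and 12256 in Hox-/-. It was lower in both Hox-/- libraries, by a shift of −0.24 against 0.12. In the windows of Bmi1 and Cbx2 the strongest regions lay in the flank, within 1 kb of an end of Spag6 and of Cbx8, a further chromodomain gene of PRC1. The Spag6 region ranked between 28538 and 38962, and the Cbx8 region between 8101 and 14612, in the 4 libraries. In Hox-/- replicate 1 the start of Cbx2 ranked better, at 14415, than the Cbx8 region, at 14612.

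In the 10 windows, wt replicate 1 had 187 listed peaks and replicate 2 had 186, while Hox-/- replicate 1 had 158 and replicate 2 had 168. Both Hox-/- libraries had fewer. Means were 186.5 ± 0.71 (SD, n = 2) for wt and 163 ± 7.07 (SD, n = 2) for Hox-/-. Hox-/- minus wt was −23.5, and the two-sided exact permutation test gave p = 0.33, its lowest attainable value. That is a change of −12.6%, beside −8.96% for the whole lists. With overlapping peaks of a library merged, the windows held 147 and 148 in wt, and 130 and 138 in Hox-/-. The difference was then −13.5, and no such count was made for the whole lists. Among the 100000 strongest peaks of each library the direction turned, with 79 and 77 peaks in wt, and 80 and 84 in Hox-/-, a difference of 4.

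Jarid2 accounted for the most of it, with 61 peaks in each wt library, and 48 and 53 in Hox-/-. Ezh2 had 10 and 12 peaks in wt and 8 in each Hox-/- library, Bmi1 had 14 in each wt library, and 12 and 11 in Hox-/-, and Kmt2a had 18 and 21 in wt, and 17 and 16 in Hox-/-. These 4 genes had fewer peaks in both Hox-/- libraries than in either wt library, against 21.8% of protein-coding genes with any peak, and 0 had more, against 3.63%. The numbers of the other 6 genes overlapped between genotypes. Several listed peaks can lie in 1 merged region, so fewer peaks need not mean fewer regions. At Bmi1, 8 of 8 regions called in both wt libraries were called in both Hox-/- libraries too. At Kmt2a it was 9 of 9, at Jarid2 36 of 41 and at Ezh2 4 of 8. The peaks at starts did not contribute, with 23 and 24 in wt, and 24 and 23 in Hox-/-, while those inside the genes numbered 108 in each wt library, and 86 and 94 in Hox-/-. Hox-/- replicate 1, the shallowest library, had the fewest, but Hox-/- replicate 2, at a relative depth of 0.987, also had fewer than either wt library. The part of depth in these numbers was not tested.

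Regions called in both wt libraries were nearly all called in Hox-/- cells as well. Of 122 such regions, 118 overlapped a Hox-/- peak in 1 library or both, that is 96.7% (Clopper-Pearson 95% limits 91.8% and 99.1%, counting error only), beside 94.6% in the windows of all protein-coding genes. The share was 88.5% when Hox-/- replicate 2 was left out, beside 87.7% in the windows of all protein-coding genes. The 4 regions with no Hox-/- peak lay inside Jarid2 (chr13:44848128-44848584 and chr13:44886624-44886918) and inside Cbx7 (chr15:79919799-79920094 and chr15:79964861-79965350). In all gene windows, 5.4% of the regions called in both wt libraries were of this kind. Of 109 regions called in both Hox-/- libraries, only 1 had no wt peak, against 1.78% in all gene windows. It lay 35.7 kb after the start of Rnf2, in its flank (chr1:151465077-151465461). All 5 were weak. Their best rank in any library was 120149, whereas the regions called in all 4 libraries had a median best rank of 61051. For regions this weak, absence and a signal under the threshold of the list cannot be told apart.

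Among the 102 regions called in all 4 libraries, 21 shifted by more than both replicate differences, against 28.5% of all 122787 such regions. Of these, 15 ranked higher in Hox-/- (background 14.9%) and 6 ranked lower (background 13.6%). Ranked by fold, the split was 19 higher and 5 lower, beside 19315 and 15130 of all regions. Ranked only among regions called in all 4 libraries it was 16 and 7, beside 17106 and 17221 of all. The median shift of the 102 regions was 0.05, beside 0.02 over all regions. Among the 53 regions within the 100000 strongest peaks of every library it was 0.0023, beside 0.0052 for all regions so restricted. With 1 library left out, the median over regions called in the remaining libraries was 0.0493 to 0.0963. It was highest without Hox-/- replicate 1, and over all regions it was 0.0122 to 0.0223.

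The 5 largest shifts towards a better rank in Hox-/- were at Jarid2, Rnf2 and Cbx7. The 1 strong region among them lay 20.7 kb after the start of Jarid2, inside the gene (chr13:44751644-44752258). It ranked 9109 and 7555 in wt, and 3794 and 5754 in Hox-/-. Both Hox-/- libraries were above both wt libraries, with a shift of 0.83 against a replicate difference of 0.60. Without Hox-/- replicate 1 the shift was 0.53.

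The largest shift, 0.93 against 0.44, was at chr13:44845730-44846071, 114.6 kb after the start of Jarid2. This region ranked 164072 and 120893 in wt, and 71564 and 76484 in Hox-/-. A further Jarid2 region at chr13:44830521-44831289, 99.6 kb after the start, ranked 160040 and 187239 in wt, and 114636 and 100450 in Hox-/-, a shift of 0.69 against 0.23. Ranked only among regions called in all 4 libraries it shifted by 0.39. Both are weak regions in which the Hox-/- libraries stood above the wt libraries without overlap. Of 36 Jarid2 regions called in all 4 libraries, 5 ranked higher in Hox-/- by more than both replicate differences (background 14.9%) and 1 ranked lower (background 13.6%). Together these 6 are 16.7% of the Jarid2 regions, below the 28.5% of all regions.

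Inside Rnf2, 3.78 kb after its start, the region chr1:151497015-151497409 ranked 34996 and 41595 in wt, and 19748 and 23417 in Hox-/-. The genotypes did not overlap, with a shift of 0.83 against replicate differences of 0.25 in each genotype, and the shift was 0.70 to 0.95 with 1 library left out. It moved opposite to the start of Rnf2, which ranked lower in Hox-/-. Over the gene, 5 of 7 regions called in all 4 libraries passed the replicate differences, 3 ranked higher and 2 lower, where all regions gave 28.5%, 14.9% and 13.6%. At Cbx7 the region chr15:79943615-79944011, 11.2 kb before the listed start and within the gene body, ranked 75191 and 99330 in wt, and 53688 and 53835 in Hox-/-. Its shift was 0.68 against 0.40, with no overlap.

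**Figure D3:**
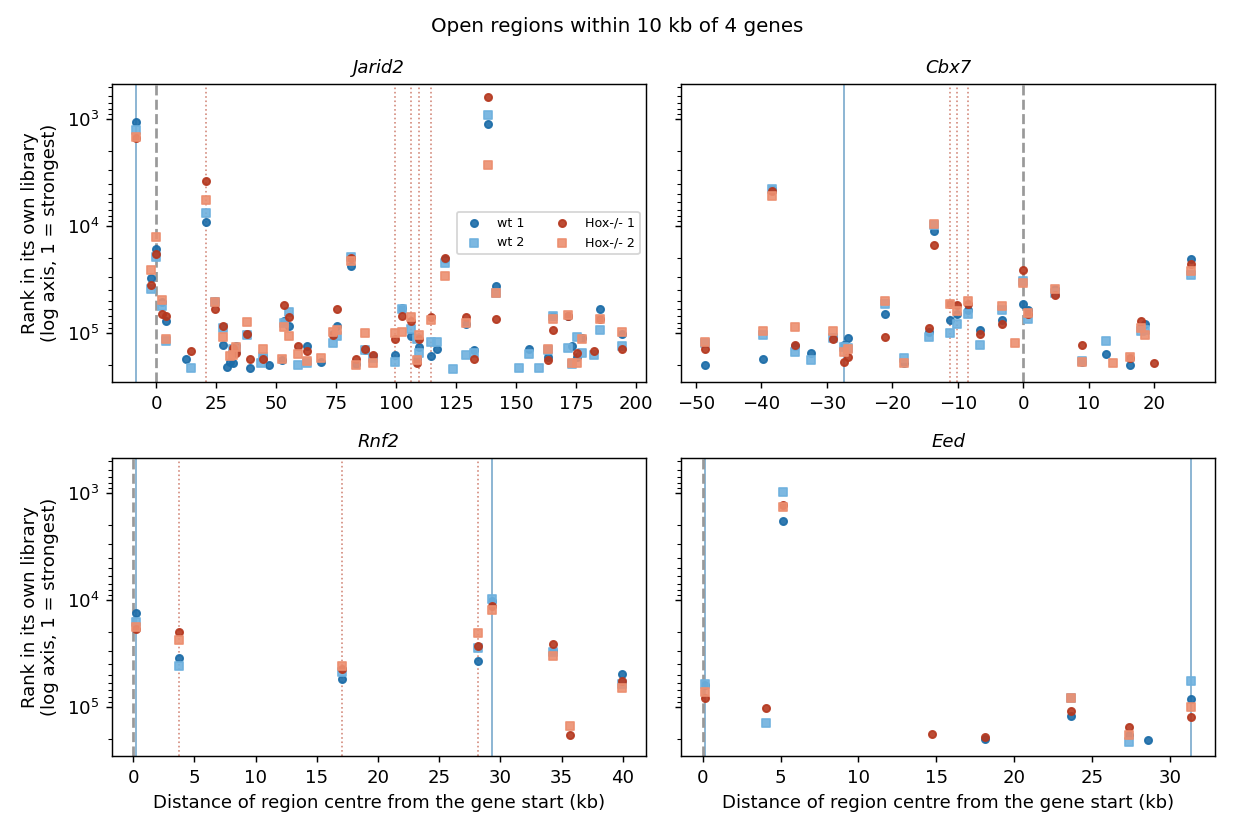
Open regions in the windows of Jarid2, Cbx7, Rnf2 and Eed, plotted by the distance of their centre from the nearest listed start (horizontal, kb, positive in the direction of the gene) and their rank in each library (vertical log axis, strongest at the top). Dotted red lines mark regions ranked higher in Hox-/- by more than both replicate differences, solid blue lines those ranked lower, and the dashed line is the start. The strongest Eed region, at 5.13 kb, carries no line.

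Among the regions that ranked lower in Hox-/-, the largest shift was that of a region 31.4 kb after the start of Eed, in its flank (chr7:89949329-89949879), with ranks of 83787 and 56602 in wt, and 124826 and 100035 in Hox-/-. The shift was −0.70 against 0.57, and without Hox-/- replicate 1 it was −0.54 and no longer exceeded the replicate difference. It was −0.42 without wt replicate 2. A region 8.43 kb before the start of Jarid2 (chr13:44721876-44722808) was among the strongest of all windows, with ranks of 1060 and 1256 in wt, and 1505 and 1472 in Hox-/-. Its shift of −0.37 against 0.24 turned to 0.06 when peaks were ranked by fold. At Cbx7, chr15:79959706-79960241 shifted by −0.34 against 0.33, and by −0.32 without wt replicate 1, no longer beyond the replicate difference. That shift was −0.18 without Hox-/- replicate 1 or when ranked among regions called in all 4 libraries, and −0.16 when ranked by fold. The other lower regions were the starts of Rnf2 and Eed and the strongest region of Rnf2, given above.

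A fixed list of 41 further Polycomb and MLL/COMPASS genes was examined at the starts in the same way. A start peak was listed in all 4 libraries for 38 of them. Of these, 11 shifted by more than both replicate differences (background 24.8%), 6 higher in Hox-/- (background 13.5%) and 5 lower (background 11.3%). Ranked by fold, the split was 9 higher and 2 lower, beside 18.6% and 8.03% of all genes. The median shift was 0.15, beside 0.02 over all genes. In PRC2, 2 of 8 genes were higher and 1 lower, in PRC1 2 of 16 higher and 2 lower, and in MLL/COMPASS 1 of 12 higher and 2 lower, and of the 2 demethylases of histone H3 lysine 27, Kdm6a was higher, which did not pass when ranked by fold.

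Setd1a, a methyltransferase of histone H3 lysine 4, ranked 13044 and 12142 in wt, and 7276 and 9405 in Hox-/-, a shift of 0.61 against 0.37. Phf19, an accessory subunit of PRC2, ranked 163370 and 142047 in wt, and 108774 and 97943 in Hox-/-, a shift of 0.56 against 0.20, which did not pass when the summit had to lie within 500 bp of the start. Rbbp7, a histone chaperone found in PRC2 and encoded on chromosome X, ranked 31099 and 22785 in wt, and 19738 and 17356 in Hox-/-, a shift of 0.52 against 0.45, which did not pass without Hox-/- replicate 2. In all 3 genes both Hox-/- libraries ranked above both wt libraries.

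On the lower side, Aebp2, an accessory subunit of PRC2, ranked 51798 and 34603 in wt, and 69689 and 68795 in Hox-/-, a shift of −0.71 against 0.58. Men1, which encodes the menin subunit of MLL complexes, ranked 1498 and 1417 in wt, and 1774 and 2394 in Hox-/-, a shift of −0.50 against 0.43, which did not pass when ranked by fold. Kdm2b, which brings a PRC1 variant to unmethylated CG sites, ranked 11484 and 13669 in wt, and 16146 and 19122 in Hox-/-, a shift of −0.49 against 0.25. In these 3 genes both Hox-/- libraries ranked below both wt libraries. Bcor and Ncoa6 had no peak within 1 kb of a listed start in any library. Setd1b, for which both ends were used, had one in wt replicate 1 (rank 195666) and in Hox-/- replicate 2 (rank 111146) only.

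**Figure D4:**
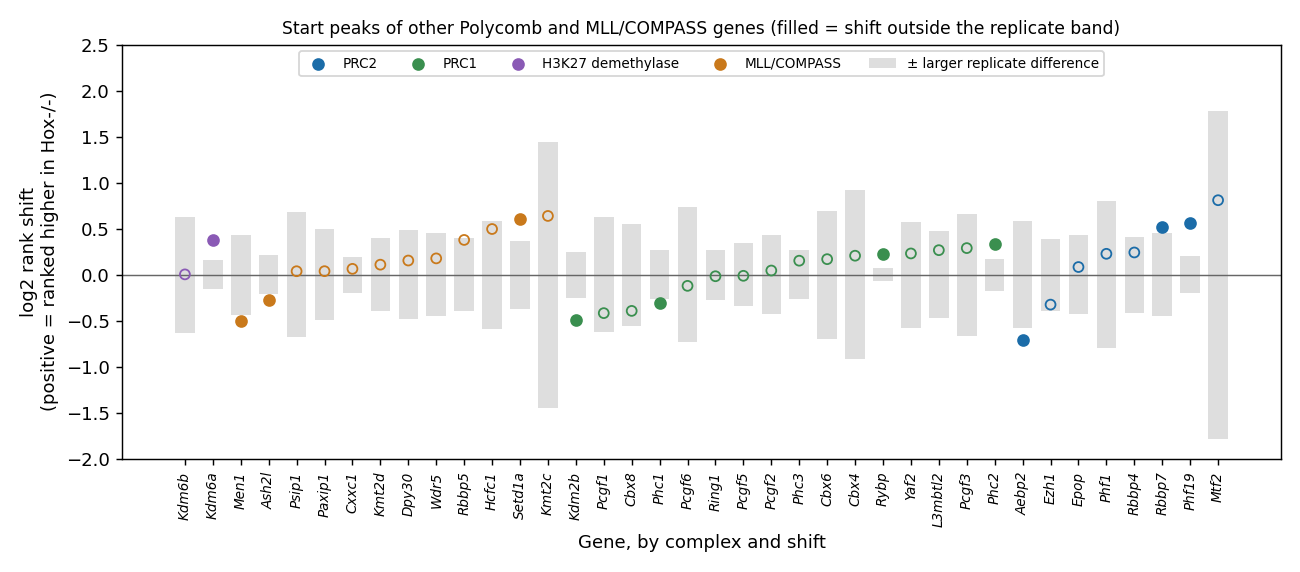
Shift of the start peak on the log2 rank scale (positive when ranked higher in Hox-/-) for the 38 of 41 listed genes with a start peak in all 4 libraries, grouped by complex. Grey bars reach the larger replicate difference on either side of 0, and filled points, 6 above and 5 below 0, lie outside their bar.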

How the data were processed

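Open chromatin was measured by ATAC-seq in 4 libraries, grouped by the genotype label. The authors deposited 1 peak list per library. Per the submitters' processing notes, the build is mm10 and the tools include cutadapt 4.8, Bowtie2 2.5.0, Picard 2.18.2, bedtools 2.30.0, MACS2 2.2.9.1 and deepTools 3.5.4, with no role or order given. The handling of duplicates, of mitochondrial reads and of the transposase offset is not given in the sources used here. For every peak the authors deposited its position and summit, the fold (ratio) of the pileup to its background, −log10 of p and of q, and a score that was not used. The lowest −log10 q deposited was 1.30 in each list.

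Ranks, regions and counts were computed with Python 3.11.15, numpy 2.4.6, pandas 2.3.3 and scipy 1.17.1. The shift rule was also run on simulated ranks with shifts of known size, and no rate from that run is used here. Peaks were ranked by −log10 p within a library, and peaks of all libraries that overlapped by at least 1 bp were merged into regions. The lists hold no read numbers. Solving the deposited fold and p for pileup and background under a Poisson model gave pileups that were whole within 0.05. The 0.1% quantile of the background served as relative depth. Gene positions and starts came from RefSeq tables of GRCm38.p6, the same primary assembly as mm10, and 79.9% of protein-coding genes had a listed start. The only sequences used were the RefSeq promoters.

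The genes and lists were chosen with earlier results of these data known. Named are the 10 genes, up to 5 regions in each direction with the largest shift past both replicate differences, regions of 1 genotype only, up to 3 further pathway genes in each direction and those lacking a start peak. The strongest region of each window, and the shares of all genes and of all gene windows under the alternative rankings and with libraries left out, and the marker shifts, were added after values were seen. Alternatives changed the ranking, the window, the list used, the overlap and the libraries included.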

Additional observations from a re-analysis of the deposited data

How the results depend on the processing

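Of 46 alternative values of the 5 main results, 32 were held the same, 13 moved and 1 changed sign. Peak number was judged by direction, and the share of regions kept and the median region shift by limits of error. A count of shifted starts was held the same when its ratio to the main count stayed within a fixed limit, whichever genes or directions made it up. Thus 3 of the 10 starts counted as the same as 2. The difference in peak number turned from −23.5 to 4 with the 100000 strongest peaks of each library, where lists of unequal length are cut to the same length. The median region shift was 0.0023 among regions within the 100000 strongest peaks. With 1 library left out, Hox-/- minus wt peaks lay between −28.5 and −18.5, the share of regions kept from 88.5% to 91.8% (87.7% to 90.9% in all gene windows), the median region shift from 0.0493 to 0.0963, the shifted starts from 3 to 7 of 10 and those of the further list from 15 to 23, where 44.5% to 51.6% of all genes passed. The counts of shifted starts rise by construction, because 1 replicate difference fewer has to be exceeded. Without a Hox-/- library, a region has 1 library fewer to be kept in, and without a wt library the set of wt regions grew from 122 to 139 or 144. The region before Jarid2 went from −0.367 to 0.0635 when ranked by fold, and the cause was not tested.

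Replicate differences of the genotypes correlated by 0.0036 over 122787 regions, so same-numbered libraries shared no replicate difference in rank that this measure could show. The labels do not say whether same-numbered libraries were made together. With the replicate block, which asks only that both same-numbered pairs move the same way, 5 of 10 member starts and 22 of 38 of the further list passed, beside 52.8% of all genes, the difference in peak number was −23.5 and the mean of the 2 pairs' median region shifts 0.0362. Hox-/- replicate 1 was the shallowest library, and the part of depth in the calls of weak regions was not tested.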
